A study of Chlorocebus sabaeus with 10 samples.

Results

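The insulin signaling and insulin-like growth factor (IGF) axis was examined in the liver through 10 genes chosen by name: INSR, IRS1, IRS2, PIK3R1, AKT2, FOXO1, IGF1, IGFBP1, IGFBP2 and IGFBP4. Of the 28078 transcripts in the deposited table, each gene was represented by the transcript with its symbol, and 9 of the 10 genes had one. IRS1 was not analysed here. The counts of FOXO1 were too low for the filter on low counts, so 8 members were tested among 7948 transcripts. The samples were liver biopsies of 10 female vervet monkeys (Chlorocebus sabaeus), one library per animal. All animals had been kept on chow, after which 5 were fed a high fructose (HFr) diet and 5 stayed on chow for some weeks, and the study compared the diets. A replicate number names an animal within its diet, and the labels give no link between animals of different diets.

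Insulin binds its receptor on hepatocytes, which phosphorylates insulin receptor substrates, and these recruit phosphatidylinositol 3-kinase (PI3K) to activate AKT. AKT phosphorylates the transcription factor FOXO1 and keeps it out of the nucleus, so that genes FOXO1 drives, IGFBP1 and IRS2 among them, are known to be high in fasting and low after feeding. The liver is also the main source of circulating IGF1, which it makes in response to growth hormone, and the IGF binding proteins carry IGFs in blood and limit their access to receptors.

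Total estimated counts ranged from 3052497 to 4992505 in the HFr animals and from 2977282 to 4663431 in the chow animals. Mitochondrial transcripts took 41.8% to 67.8% of them on the HFr diet and 34.8% to 73.6% on chow, which left 864571 to 2657103 counts per animal on nuclear transcripts. The 6 hepatocyte markers summed to between 42065 and 65934 normalized counts in the HFr animals and between 35554 and 69969 in the chow animals (two-sided exact permutation test, p = 0.841). The range on each diet covered much of the other. Of 5 skeletal muscle markers, MYH2, CKM and MB had no count in any animal. The summed markers of stellate cells and fibroblasts ranged from 223 to 407 on the HFr diet and from 179 to 827 on chow (two-sided exact permutation test, p = 0.444), those of macrophages from 320 to 489 and from 316 to 497 (p = 0.825), and those of endothelial cells from 183 to 211 and from 136 to 209 (p = 0.183). A normalized count (CPM) is an estimated count over the library size after TMM scaling, a trimmed mean that evens out library composition. It does not account for transcript length, so levels are compared between animals and not between genes.

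No member passed the test of a difference between the diets. Of the 8 tested members, 0 had an unadjusted p under 0.05 in edgeR's quasi-likelihood test, beside 4.29% of all tested transcripts, and 0 passed after Benjamini-Hochberg adjustment, as was the case for 0% of all tested transcripts. The adjusted p of edgeR was above 0.99 for each member. IGFBP4 and AKT2 had higher fitted levels on the HFr diet and the other 6 had lower ones, with a median log2 fold change of -0.16 against -0.00075 over all tested transcripts. For all 8 members the values of the diets overlapped, while 0.541% of all tested transcripts had no overlap. In bulk tissue, fewer cells of a type and less RNA per cell cannot be told apart.

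**Figure D1:**
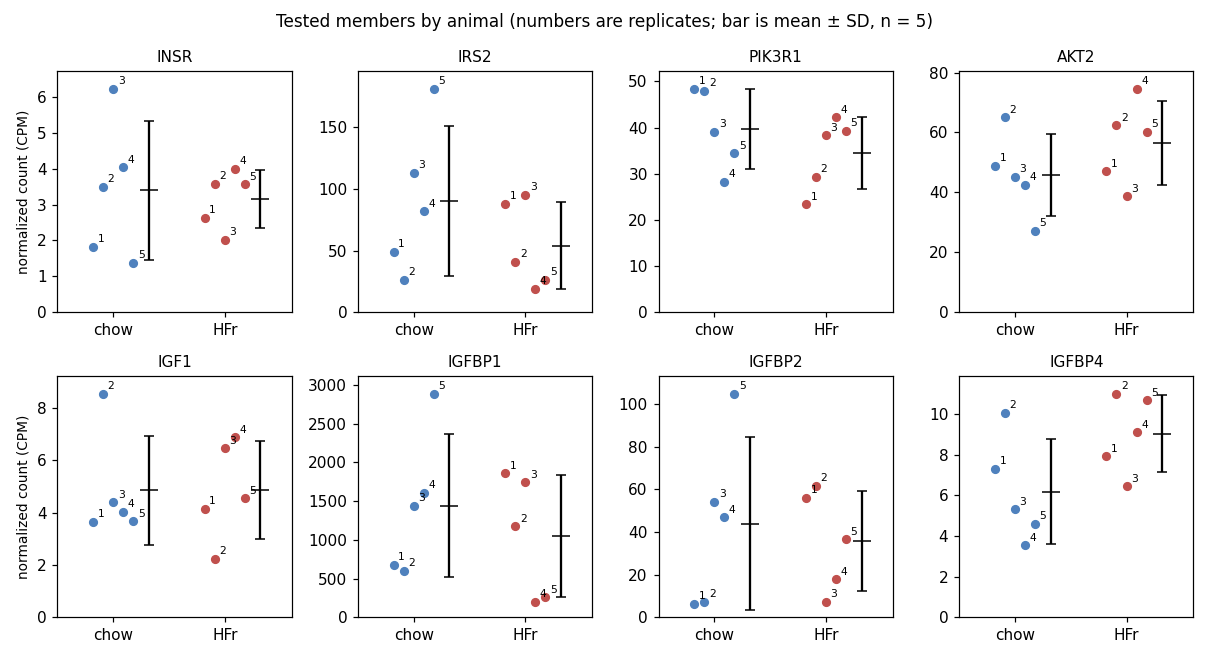
Normalized count (CPM, vertical axis from 0) of each tested member in each animal, chow in blue and HFr in red, with the replicate number beside each point and a bar for the mean ± SD (n = 5). The points of both diets overlap in every panel, and IRS2, IGFBP1 and IGFBP2 spread widest relative to their means.

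INSR encodes the insulin receptor and lies on chromosome 6 (6630777 to 6803593, minus strand, ChlSab1.1 as listed in the deposited table). Its level was 2.64, 3.59, 2.02, 3.999 and 3.56 normalized counts in HFr replicates 1 to 5, and 1.83, 3.50, 6.24, 4.04 and 1.38 in chow replicates 1 to 5. Both the highest and the lowest animal were on chow, and the HFr animals lay between them. The log2 fold change, HFr minus chow, was -0.12 with a standard error (SE) of 0.38 and a 95% interval of -0.93 to 0.70. These levels rest on 3 to 34 estimated counts per animal, and the interval leaves the direction of a change undecided.

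IRS2 is an insulin receptor substrate that docks PI3K (chromosome 3, 88045274 to 88074665, minus strand). It reached 87.8, 41.0, 95.2, 18.9 and 26.5 normalized counts in HFr replicates 1 to 5, and 49.1, 26.1, 113, 81.9 and 182 in chow replicates 1 to 5. The lowest animal was on the HFr diet and the highest on chow, 9.61-fold apart, but HFr replicates 1 and 3 lay above 3 of the chow animals. The HFr mean was 53.9 ± 35.3 and the chow mean 90.3 ± 60.7 (SD, n = 5 each). The log2 fold change was -0.75 (SE 0.51, 95% interval -1.84 to 0.33), and the difference of the means did not pass the two-sided exact permutation test (p = 0.270). The log2 fold change ranged from -1.07 to -0.34 with an animal left out and was smallest in size without chow replicate 5, the animal with the highest level.

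PIK3R1, the regulatory subunit of PI3K that binds the substrates (chromosome 4, 64321078 to 64406520, plus strand), varied least between animals, over a 2.07-fold range. The HFr animals had 23.4, 29.4, 38.3, 42.2 and 39.4 normalized counts and the chow animals had 48.4, 48.0, 39.1, 28.3 and 34.5. Chow replicates 1 and 2 were the highest and HFr replicate 1 the lowest, with the others mixed. Its log2 fold change was -0.21 (SE 0.21, 95% interval -0.65 to 0.23). It was nearer to 0 when HFr replicate 1 (-0.10) was left out, and likewise for chow replicate 1 (-0.12) and chow replicate 2 (-0.13).

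AKT2 is the AKT kinase most tied to insulin action in liver (chromosome 6, 34690462 to 34720782, minus strand). Its level was 47.1, 62.4, 38.7, 74.6 and 60.1 normalized counts in HFr replicates 1 to 5 and 48.9, 65.0, 45.1, 42.5 and 27.1 in chow replicates 1 to 5. HFr replicate 4 was the highest animal and chow replicate 5 the lowest, while chow replicate 2 stood above 4 of the HFr animals. The difference of mean normalized counts did not pass the two-sided exact permutation test (p = 0.270). The fitted log2 fold change was 0.30 (SE 0.23, 95% interval -0.19 to 0.80). It was 0.17 without chow replicate 5, 0.18 without HFr replicate 4 and 0.47 without chow replicate 2.

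FOXO1, the transcription factor that AKT restrains (chromosome 3, 18920651 to 19027708, minus strand), was at the edge of detection. HFr replicates 1 to 5 had 2, 4, 3, 0 and 3 estimated counts, and chow replicates 1 to 5 had 5, 3, 2, 5 and 6, which sums to 12 and 21. The diets overlapped. When every transcript with a count in any animal was kept, its log2 fold change was -0.97 with an SE of 0.72 (edgeR, adjusted p = 0.838 over 16066 transcripts). No difference between the diets was detected at these low counts.

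IGF1, the growth hormone dependent ligand (chromosome 11, 97631189 to 97707309, minus strand), was also low, with 8 to 39 estimated counts per animal. Its level was 4.14, 2.24, 6.46, 6.89 and 4.55 normalized counts in HFr replicates 1 to 5 and 3.66, 8.54, 4.40, 4.04 and 3.68 in chow replicates 1 to 5. Chow replicate 2 was the highest animal, and the other 4 chow animals lay within the HFr range. The HFr mean was 4.86 ± 1.88 and the chow mean 4.86 ± 2.08 (SD, n = 5 each), and the log2 fold change was -0.05 (SE 0.35, 95% interval -0.80 to 0.70).

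IGFBP1, the binding protein that insulin suppresses in liver (chromosome 21, 12932732 to 12937892, minus strand), had one of the widest spreads. It reached 1859, 1174, 1746, 203 and 261 normalized counts in HFr replicates 1 to 5 and 676, 603, 1441, 1606 and 2885 in chow replicates 1 to 5. The HFr animals fell into 3 high and 2 low ones, and both low ones were under every chow animal, while HFr replicates 1 and 3 were above 4 of the chow animals. The difference of mean normalized counts did not pass the two-sided exact permutation test (p = 0.484). The log2 fold change was -0.46 (SE 0.59, 95% interval -1.72 to 0.80). With an animal left out it ranged from -0.78 without HFr replicate 1 to -0.05 without chow replicate 5, and it was -0.20 without HFr replicate 4 and -0.21 without HFr replicate 5.

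IGFBP2, another IGF carrier made by the liver (chromosome 10, 102469669 to 102503277, plus strand), ranged over 16.4-fold. The HFr animals had 56.1, 61.7, 7.26, 17.8 and 36.6 normalized counts and the chow animals had 6.40, 7.45, 54.3, 47.0 and 105. Low animals, under 8 normalized counts, were HFr replicate 3 and chow replicates 1 and 2, so that each diet held low and high animals. The log2 fold change was -0.26 (SE 0.67, 95% interval -1.70 to 1.18), and its sign turned to 0.11 when only library size was used for scaling.

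IGFBP4 binds IGFs and inhibits their action in tissues (chromosome 16, 65723361 to 65737073, minus strand). Its level was 7.91, 10.99, 6.46, 9.11 and 10.7 normalized counts in HFr replicates 1 to 5 and 7.31, 10.1, 5.32, 3.54 and 4.60 in chow replicates 1 to 5. Chow replicates 3, 4 and 5 lay under every HFr animal, while chow replicate 2 lay among the highest HFr animals. The HFr mean was 9.03 ± 1.90 and the chow mean 6.17 ± 2.58 (SD, n = 5 each). With a log2 fold change of 0.52 (SE 0.28, 95% interval -0.08 to 1.12) it came nearest to the threshold of all members, and it did not pass (two-sided exact permutation test, p = 0.0873). These levels rest on 7 to 54 estimated counts per animal. The level of IGFBP4 was lower in animals with a larger mitochondrial share (Pearson r = -0.68, Spearman rho = -0.72, n = 10 animals, permutation p = 0.0347 and 0.0224, adjusted p = 0.277 and 0.179 over 8 members). Centred within diets, r with that share was -0.84 (permutation p = 0.00274, not adjusted and not allowing for the centring). On values not centred, r fell from -0.68 to -0.52 without the 2 animals of most extreme share (permutation p = 0.184). With that share as a covariate the log2 fold change was 0.58 (SE 0.23, edgeR adjusted p = 0.933), and without chow replicate 2 it was 0.77 (edgeR adjusted p = 0.875); both had an unadjusted p under 0.05.

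**Figure D2:**
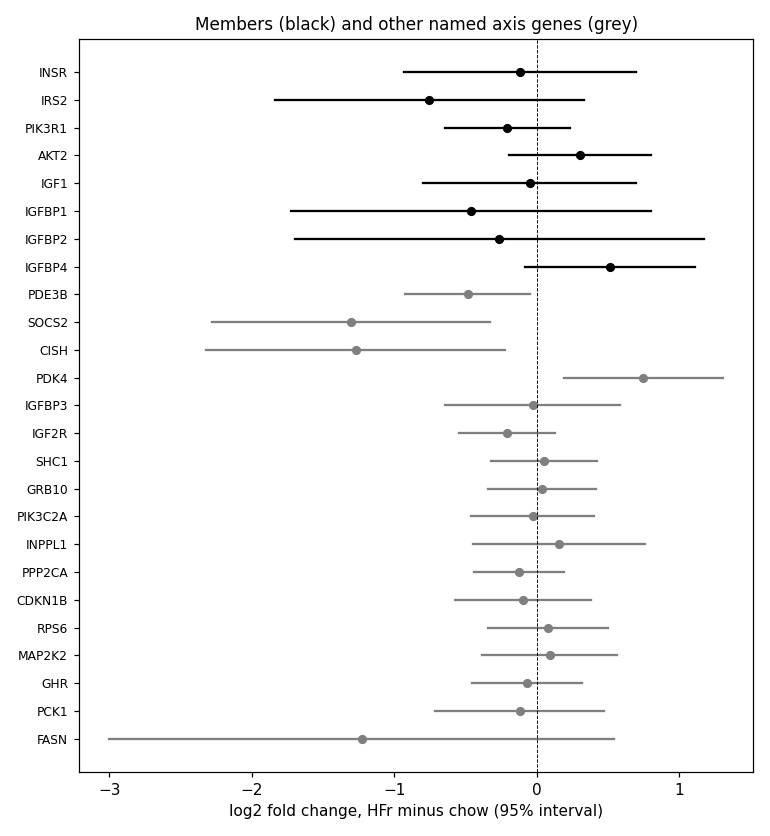
Log2 fold change, HFr minus chow (horizontal axis), with its 95% interval for the tested members (black) and the other named genes of the axis (grey). The intervals of all 8 members cross 0, and those of PDE3B, SOCS2, CISH and PDK4 do not.

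The members differed in how much they varied between animals of one diet. The biological coefficient of variation, edgeR's estimate of the spread beyond counting error, was 71.9% for IGFBP2, 62.9% for IGFBP1 and 54.8% for IRS2, against a median of 25% over all tested transcripts. Those 3 values stood at percentiles 99.4, 98.9 and 97.9 of all tested transcripts. AKT2, IGFBP4 and PIK3R1 were at percentiles 61.1, 56.8 and 40.9. INSR and IGF1, at percentiles 81.6 and 81.2, were counted at low depth.

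**Figure D3:**
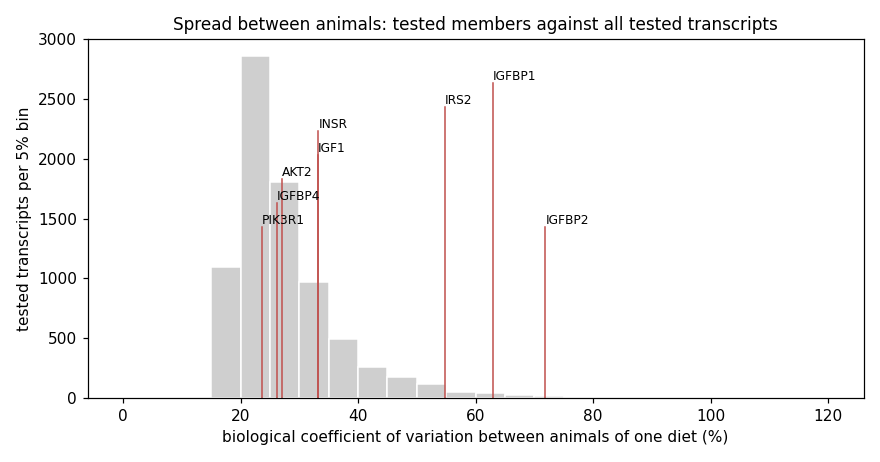
Histogram of the biological coefficient of variation (%, horizontal axis) over all tested transcripts in bins of 5%, with a red line for each tested member (line height carries no value). IGFBP2, IGFBP1 and IRS2 lie in the right tail and the other members lie within the main body.

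IRS2 and IGFBP1 varied together across the 10 animals. The level of IRS2 was high where IGFBP1 was high (Pearson r = 0.92, Spearman rho = 0.89, permutation p = 4e-05 and 0.0011, adjusted p = 0.0007 over 28 pairs of members). Chow replicate 5 had the highest level of both, and HFr replicates 4 and 5 had the 2 lowest levels of IGFBP1 and were among the 3 lowest of IRS2. After each diet was centred on its own mean, r was 0.91. On values not centred, r was 0.86 without the 2 animals farthest from the median of IRS2 (permutation p = 0.00483, n = 8, adjusted p = 0.0676). With scaling by library size only, r was 0.91. Among 7170 other transcripts with a symbol, IGFBP1 had the highest positive r with IRS2, and IRS2 had positive rank 3 for IGFBP1, after C6orf203 and THOC7 (r = 0.93 for each). These ranks are a description over the same 10 libraries, and 3.42% of those transcripts had an r of at least 0.8 in size with IRS2.

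AKT2 ran opposite to both. Its r was -0.94 with IRS2 (Spearman rho = -0.93, permutation p = 5e-05 and 0.00034, adjusted p = 0.0007) and -0.82 with IGFBP1 (Spearman rho = -0.87, permutation p = 0.00235 and 0.00211, adjusted p = 0.0219). Chow replicate 5 had the lowest AKT2 level and HFr replicate 4 the highest, the reverse of their order in IRS2. Within diets r was -0.93 with IRS2 and -0.80 with IGFBP1. Among 7170 other transcripts with a symbol, AKT2 had negative rank 10 for IRS2 and negative rank 52 for IGFBP1. IRS2 had negative rank 3 for AKT2. An r of at least 0.8 in size was reached by 4.81% of those transcripts with AKT2 and by 1.87% with IGFBP1. Both relations depended on the scaling, since with library size only r was -0.53 with IRS2 (permutation p = 0.115) and -0.42 with IGFBP1 (permutation p = 0.232). Without the 2 animals farthest from the median of the first gene, r was -0.90 between IRS2 and AKT2 (permutation p = 0.00461, n = 8, adjusted p = 0.0676) and -0.68 between AKT2 and IGFBP1 (permutation p = 0.0539, n = 8), so the latter rests in part on those animals. The mitochondrial share had an r of -0.59 with AKT2 and 0.49 with IRS2 (permutation p = 0.0728 and 0.147, adjusted p = 0.291 and 0.333). Centred within diets these were -0.64 and 0.53 (permutation p = 0.0486 and 0.116, not adjusted and not allowing for the centring). With mitochondrial transcripts removed before scaling, r was -0.94 between AKT2 and IRS2 and -0.82 between AKT2 and IGFBP1. That removal changes only the scaling, so the part of the mitochondrial share in these relations was not tested.

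AKT2 and IGFBP4 varied together, with r = 0.78 (Spearman rho = 0.82, permutation p = 0.00685 and 0.00586, adjusted p = 0.0480). The mitochondrial share had an r of -0.59 with AKT2 and -0.68 with IGFBP4, and neither passed adjustment (permutation test, adjusted p = 0.291 and 0.277). The part of that share in the relation of AKT2 and IGFBP4 was not tested. Centred within diets, r between AKT2 and IGFBP4 was 0.74 with an adjusted permutation p of 0.0859. On values not centred and scaled by library size only, r was 0.94. Among 7170 other transcripts with a symbol, IGFBP4 had positive rank 236 for AKT2, and AKT2 had positive rank 85 for IGFBP4, so many transcripts followed each as closely. In all, 7 of the 28 pairs had an unadjusted permutation p under 0.05 and 4 passed after adjustment, all 4 of them described here. IGFBP2, although as variable as IGFBP1, had an r of 0.41 with it (permutation p = 0.234), and 0.71 without the 2 animals farthest from the median (permutation p = 0.0538, n = 8). IGF1 had an r of -0.39 with IGFBP1 (permutation p = 0.264).

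**Figure D4:**
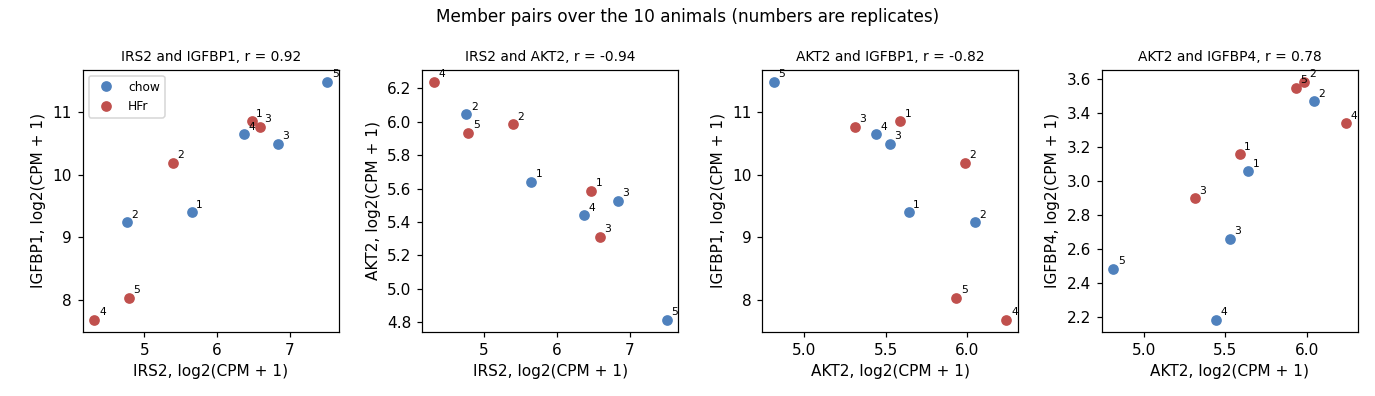
The 4 pairs of members that passed adjustment, each point an animal (chow blue, HFr red, replicate numbers beside), on log2(CPM + 1) axes. Animals of both diets lie along the same line in each panel, with chow replicate 5 at one end of the horizontal axis in all 4.

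The other genes of the axis were read from a list of 98 written from general knowledge, of which 61 were tested. Among them 26 had higher and 35 lower fitted levels on the HFr diet, with a median log2 fold change of -0.03. An unadjusted p under 0.05 was reached by 1 gene that was higher, beside 2.06% of all tested transcripts in that direction, and by 3 that were lower, beside 2.23%. None passed after adjustment.

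Of the 3 lower genes, SOCS2 and CISH are feedback inhibitors that growth hormone induces through STAT5. SOCS2 had 39.9, 29.2, 18.6, 16.9 and 5.74 normalized counts in HFr replicates 1 to 5 and 90.5, 36.4, 43.8, 19.2 and 78.1 in chow replicates 1 to 5. Chow replicates 1 and 5 stood far above all other animals, and chow replicates 2 and 4 lay within the HFr range. Its log2 fold change was -1.30 (SE 0.46, 95% interval -2.28 to -0.32, edgeR unadjusted p = 0.0127, two-sided exact permutation p = 0.0635).

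CISH had 1.51, 2.47, 2.82, 3.999 and 8.31 normalized counts in the HFr animals and 15.1, 14.0, 10.8, 4.04 and 2.30 in the chow animals. The first 3 chow animals were above every HFr animal and the other two were not. Its log2 fold change was -1.27 (SE 0.49, 95% interval -2.32 to -0.22, edgeR unadjusted p = 0.0208, two-sided exact permutation p = 0.0952), and it rests on 4 to 66 estimated counts per animal. The unadjusted p was not under 0.05 when HFr replicate 2, chow replicate 1 or chow replicate 2 was left out, with log2 fold changes of -1.13, -1.05 and -1.09. The high chow animals were not the same for both genes, since chow replicate 5 was high in SOCS2 and low in CISH. Of the other growth hormone genes tested, GHR, JAK2, STAT5A and STAT5B had no p under 0.05, and GHR, the growth hormone receptor, had a log2 fold change of -0.07 (SE 0.18).

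PDE3B, a phosphodiesterase that AKT activates, had 24.1, 37.9, 28.6, 20.0 and 28.5 normalized counts in the HFr animals and 54.2, 36.8, 34.3, 31.8 and 37.2 in the chow animals. All chow animals were above all HFr animals except HFr replicate 2. Its log2 fold change was -0.48 (SE 0.20, 95% interval -0.92 to -0.05, edgeR unadjusted p = 0.0325, two-sided exact permutation p = 0.0556). The unadjusted p was above 0.05 without HFr replicate 1, HFr replicate 4 or chow replicate 1, with log2 fold changes of -0.44, -0.39 and -0.33.

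PDK4, a kinase that turns off pyruvate dehydrogenase and a known FOXO1 target, was the higher one. It had 263, 162, 221, 115 and 187 normalized counts in HFr replicates 1 to 5 and 89.6, 122, 108, 170 and 73.1 in chow replicates 1 to 5. Only chow replicate 4 reached the level of the 4 higher HFr animals, and HFr replicate 4 lay among the chow animals. Its log2 fold change was 0.75 (SE 0.26, 95% interval 0.19 to 1.31, edgeR unadjusted p = 0.0120, two-sided exact permutation p = 0.0476). Of the 6 tested FOXO1 targets outside the members, 5 had higher fitted levels on the HFr diet and PCK1 a lower one, with PDK4 the only one with a p under 0.05. Over all tested transcripts 3958 of 7948 were higher, and IRS2 and IGFBP1, the members named above as genes FOXO1 drives, had lower fitted levels.

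**Figure D5:**
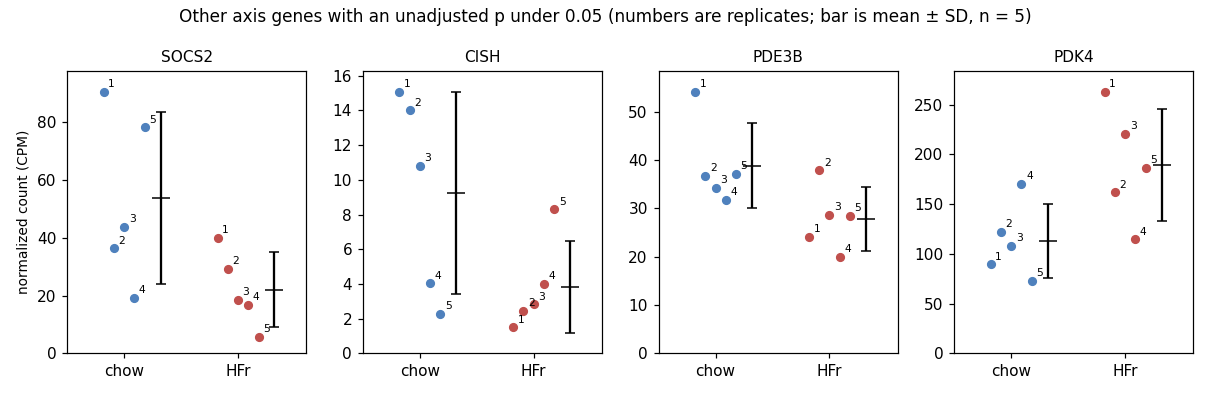
Normalized count (CPM, vertical axis from 0) of the 4 other axis genes with an unadjusted p under 0.05, per animal, chow in blue and HFr in red, with the replicate number beside each point and a bar for the mean ± SD (n = 5). The diets overlap in every panel.

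IGF ligands and carriers outside the members also overlapped. IGFBP3, the main carrier of IGF1 in blood, had an HFr mean of 623 ± 147 and a chow mean of 635 ± 265 normalized counts (SD, n = 5 each). IGF2, a fetal growth ligand that primate livers keep making, ranged from 87.7 to 341 on the HFr diet and from 60.7 to 580.0 on chow. IGF2R, which clears IGF2, had a log2 fold change of -0.21 (SE 0.16). The IGFBP proteases listed were not tested, and IGF1R was below the filter on low counts.

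One gene per group of the list was named by its normalized count, the highest of its group without regard to transcript length, and of those not yet described none had an unadjusted p under 0.05. They were the adaptor SHC1, the receptor inhibitor GRB10, the PI3K family kinase PIK3C2A, the lipid phosphatase INPPL1, the phosphatase subunit PPP2CA, the cell cycle inhibitor CDKN1B, the ribosomal protein RPS6, the kinase MAP2K2, the gluconeogenic enzyme PCK1 and the lipogenic enzyme FASN. The log2 fold changes of the first 9 ranged from -0.12 to 0.16. FASN, which insulin induces, varied 35.4-fold between animals and had a log2 fold change of -1.23 (SE 0.83, 95% interval -2.9995 to 0.54). It rested largely on chow replicate 2, without which it was -0.18 (edgeR adjusted p above 0.99), while it was -2.01 without HFr replicate 4 and -1.60 with library size only, both with an unadjusted p under 0.05 and an adjusted p above 0.99 in edgeR.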

How the data were processed

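Polyadenylated RNA of 10 liver biopsies, 5 per diet, was sequenced by the authors. Per the submitters' notes and the study's methods, reads were demultiplexed with CASAVA 1.8, checked with FastQC, aligned with STAR 2.5.3a to ChlSab1.1 and shared out among Ensembl transcripts in Partek Flow with an expectation-maximization algorithm. The deposited estimated counts are not normalized and include fractions. The deposited signal values are those counts scaled with TMM by the authors, and served only for the study's equal-variance test. Shared reads of related genes could be split by the assignment, which was not tested.

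After rounding, the filterByExpr function kept transcripts at a minimum count of 10 and a minimum total of 15. Diets were compared with edgeR 4.0.16 (quasi-likelihood, TMM, two-sided) in R 4.3.3, and p-values were adjusted by Benjamini-Hochberg over all 7948 tested transcripts. Each SE is the absolute log2 fold change over the square root of F. Intervals are at 95%. Single values were tested by the difference of mean CPM over the 252 assignments of animals to diets, with a smallest p of 0.00794. Relations used log2(CPM + 1) and 100000 permutations, two-sided. Values centred within diets were shuffled over all animals, not within a diet. That shuffle takes no account of the centring, so those p-values can be too small. The fit was tested on simulated data.

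Totals per animal were 2977282 to 4992505 counts. Named genes were the members, other listed genes with an unadjusted p under 0.05, the gene of highest normalized count per group, and the nearest transcripts of IGFBP1 and IGF1. IGF2, IGFBP2 with IGFBP1, IGF1 with IGFBP1, and genes named only to complete a count were chosen after values were seen. The members and lists were chosen with earlier results of these data known. Alternatives were DESeq2 1.42.0, limma 3.58.1, the study's test, other scalings and filters, counts summed by gene, the mitochondrial percent as a covariate, a replicate block, and each animal left out. Counts over the lists include 1 gene whose own values are not reported here.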

Additional observations from a re-analysis of the deposited data

Results flagged for a closer look

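In 4 of 50 groups of 5 animals, 1 animal stood apart from the other 4 by Dixon's test at a critical value of 0.71. For normally distributed values chance alone gives about 1 in 20 groups. The test used normalized counts without a log, so that rate may not hold here. IGF1 reached 8.54 normalized counts in chow replicate 2, while the other chow animals had 3.66 to 4.40. PDE3B reached 54.2 in chow replicate 1, with 31.8 to 37.2 in the others, and without that animal its log2 fold change was -0.33 with an edgeR unadjusted p of 0.111. MAP2K2 reached 63.5 in HFr replicate 4 (the others 30.5 to 39.96). FASN reached 421 in chow replicate 2 (the others 11.9 to 122), and without that animal its log2 fold change was -0.18 in place of -1.23.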

How the results depend on the processing

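Of the members, 0 had an unadjusted p under 0.05, and 1 had with the mitochondrial percent as a covariate (IGFBP4, edgeR adjusted p = 0.933). With each animal left out in turn the count was 0 to 1, the 1 being IGFBP4 without chow replicate 2 (edgeR adjusted p = 0.875). Of the other axis genes 4 had, against 1 with the study's equal-variance test and 2 to 6 with an animal left out, 2 without chow replicate 1 and 6 without HFr replicate 5. SOCS2 and PDK4 each kept an unadjusted p under 0.05 in 20 of 21 alternatives, PDE3B in 16 of 21 and CISH in 15 of 20. Of the 28 pairs of members 4 passed after adjustment, and 0 passed without the 2 farthest animals, a fit with fewer samples. Over all tested transcripts 341 had an unadjusted p under 0.05, 123 with library size only and 756 of 16066 with the lowest filter; 0 passed adjustment, against 2 with DESeq2 and 1 with library size only. Signs turned for INSR (0.011 with limma), IGF1 (0.043 with the study's test), IGFBP2 (0.050 with limma and 0.11 with library size only), IGFBP3 (0.011 with the study's test, 0.036 with limma and 0.043 with the replicate block) and PIK3C2A (0.040 with library size only). With an animal left out the log2 fold change ran from -0.29 to 0.28 for INSR, -0.23 to 0.28 for IGF1, -0.55 to 0.33 for IGFBP2, -0.16 to 0.16 for IGFBP3, -0.040 to 0.12 for SHC1, -0.053 to 0.11 for GRB10, -0.12 to 0.073 for PIK3C2A, -0.069 to 0.40 for INPPL1, -0.21 to 0.046 for CDKN1B, -0.12 to 0.20 for MAP2K2, -0.17 to 0.0083 for GHR and -0.36 to 0.027 for PCK1. The cause was not tested. The replicate block gave 0 members, 3 other axis genes and 271 transcripts. Deviations from the diet mean correlated at -0.29 to 0.10 between same-numbered animals, which cannot show whether the numbers pair them. Depth limits INSR, IGF1, IGFBP4 and FOXO1.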

Other observations

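IGFBP1 was also set against 10 other genes that FOXO1 or insulin is known to control, and IGF1 against 9 genes of the growth hormone axis and of the IGF complex, and 0 of these 19 relations passed adjustment. The pairs given here were chosen after their values were seen. IGFBP1 had an r of 0.76 with PCK1 and 0.77 with PPARGC1A, a coactivator of gluconeogenic genes (permutation p = 0.00935 and 0.00981, adjusted p = 0.0932 for both, Spearman rho = 0.70 and 0.64, n = 10 animals), and each fell to 0.49 without the 2 animals farthest from the median of IGFBP1. With SREBF1, a lipogenic transcription factor that insulin induces, r was -0.64 (Spearman rho = -0.65, permutation p = 0.0473 and 0.0489, adjusted p = 0.230 and 0.259), and -0.41 without those 2 animals.

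IGF1 had an r of 0.64 with IGFALS, the third partner of the circulating IGF complex (Spearman rho = 0.59, permutation p = 0.0483 and 0.0813, adjusted p = 0.230 and 0.309; r = 0.67 without the 2 animals farthest from the median). The 3 transcripts with the highest r with IGF1 over the 10 animals were HS6ST1 (0.94), OGFOD3 (0.91) and POLM (0.90), given as a description.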
